A study of Homo sapiens with 6 samples.

Results

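Exosome-derived signals of 8 miRNAs of the miR-519 and miR-520 families were described in 2 substates of H9, a widely used human ES cell line. The members were chosen by name, with substate differences on these same arrays already known, so that every difference given for them is a description without a test. All 8 were found among the 2549 human miRNAs on the array, which holds 17 miR-519 and miR-520 entries in all. H9 cells were grown on Matrigel in TeSR-E8 medium, where they formed colonies of substate 1 and colonies of substate 2, the latter marked by vimentin and biased towards ectoderm. Exosomes, small vesicles released by cells, were precipitated from the medium in 3 experiments, and their miRNAs were labelled with Cy3 and hybridised to 1 array per substate in each experiment. Substate 1 was at passage 41, 46 and 50 in experiments 1, 2 and 3, and substate 2 was at passage 52, 61 and 65. Passage and substate therefore cannot be told apart. The comparison of the substates asked which exosome-derived miRNAs could serve as markers of a shift in pluripotent state.

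The 8 miRNAs are encoded in C19MC, a large primate-specific miRNA cluster on chromosome 19 that is imprinted, highly active in placenta and also transcribed in human pluripotent stem cells. An miRNA finds its targets mainly through its seed, a short stretch near the 5′ end. Many C19MC miRNAs carry the seed core of the miR-302 family, which is abundant in ES cells and favours self-renewal, or that core displaced towards the 3′ end as in miR-17, which promotes proliferation.

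The mature sequences, taken from RefSeq (GRCh38.p14), show which members share a seed, and the comparison by seed rests on them. Capitals mark the seed, bases 2 to 8 counted from the 5′ end. All 8 members were matched, with miR-520b listed there under its name with the suffix -3p. In the miR-302-like members the core of miR-302a-3p (its bases 2 to 7) starts at base 1 or 2. The pair miR-520b and miR-520c-3p has the same seed as miR-302a-3p.
hsa-miR-302a-3p: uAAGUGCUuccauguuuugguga
hsa-miR-520b: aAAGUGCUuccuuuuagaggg
hsa-miR-520c-3p: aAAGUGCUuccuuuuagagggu
The pair miR-519b-3p and miR-519c-3p shares another seed, and miR-520f-3p, in which the core starts at base 1, has a seed of its own.
hsa-miR-519b-3p: aAAGUGCAuccuuuuagagguu
hsa-miR-519c-3p: aAAGUGCAucuuuuuagaggau
hsa-miR-520f-3p: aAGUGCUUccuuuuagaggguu
In the miR-17-like members the core starts at base 3 or 4. The seed of miR-519d-3p is that of miR-17-5p, and miR-520g-3p and miR-520h share a seed.
hsa-miR-17-5p: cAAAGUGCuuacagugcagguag
hsa-miR-519d-3p: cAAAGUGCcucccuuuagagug
hsa-miR-520g-3p: aCAAAGUGcuucccuuuagagugu
hsa-miR-520h: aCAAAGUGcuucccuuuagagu

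Several members are nearly the same molecule. The 21 bases of miR-520b all lie in miR-520c-3p, and the 22 bases of miR-520h all lie in miR-520g-3p. With a shift of 1 base, miR-520f-3p matches miR-520c-3p over 21 bases with 0 mismatches. Counted from the 5′ end of miR-519b-3p, miR-519c-3p differs from it by C11U and U21A, and miR-520c-3p differs from it by A8U and U21G. Across the classes, miR-520g-3p aligns with miR-519d-3p over 22 bases at a shift of 1 base and differs by C9U, counted from the 5′ end of miR-519d-3p. How far the array's probes separate such relatives was not tested, so that members of a nested pair may share signal and are not independent measurements.

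Each member comes from a single miRNA gene on the plus strand of chromosome 19. The coordinates given here are those of the mature sequence within each gene, in GRCh38.p14. In the order of the 46 miRNA genes of the cluster, which spans 95.8 kb, MIR520F is number 8 (chr19:53682213-53682234), MIR519C is number 10 (chr19:53686522-53686543), MIR519B is number 14 (chr19:53695263-53695284) and MIR520B is number 18 (chr19:53701267-53701287). Further along follow MIR520C as number 21 (chr19:53707506-53707527), MIR519D as number 25 (chr19:53713400-53713421), MIR520G as number 29 (chr19:53722220-53722243) and MIR520H as number 38 (chr19:53742566-53742587). The miR-302-like genes thus all lie before the miR-17-like genes, with other C19MC genes between them.

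The arrays differed in depth. The labelled amount was 72.4 ng for both arrays of experiment 1, 100 ng for those of experiment 2 and 51.4 ng for those of experiment 3. Feature Extraction, the scanner software, detected 23.3% of the human miRNAs in substate 1 and 20.7% in substate 2 in experiment 1. The shares were 18.2% and 18.4% for experiment 2, and 13.0% and 12.2% for experiment 3. Experiment 3 was thus the dimmest, and precision is limited throughout by having 3 arrays per substate. Experiment 1 was on slide 1 and experiments 2 and 3 were on slide 2, with both substates on each slide, so that the values per experiment are also values within a slide.

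The label as ES cell exosomes was compared with marker miRNAs. Of 8 miRNAs typical of human ES cells, 5 (miR-302a-3p, miR-302b-3p, miR-302c-3p, miR-302d-3p and miR-367-3p) were detected on all 6 arrays. Their near relatives miR-371a-3p and miR-373-3p were detected on 2 arrays and 1 array, and miR-372-3p on none. The summed total signal of the 8 in substates 1 and 2 was 5589 and 2185 intensity units in experiment 1. It was 3031 and 3408 units in experiment 2 and 2512 and 1252 units in experiment 3. Detection failed on every array for the 3 blood cell miRNAs (miR-451a, miR-223-3p and miR-142-3p), for the liver miRNA miR-122-5p and for the 3 muscle miRNAs (miR-1-3p, miR-133a-3p and miR-206). Of the neural miRNAs, miR-9-5p was undetected throughout and miR-124-3p was detected on all 6 arrays, with 7.46 and 5.49 units in experiment 1, 5.81 and 9.15 units for experiment 2 and 3.60 and 3.23 units for experiment 3. In these units miR-124-3p was lower in substate 2 in experiments 1 and 3, so that its direction there depends on the scaling. On the percentile scale used below, its log2 differences (substate 2 minus substate 1) were 0.38, 0.99 and 0.37, where the mean difference of each member was below 0. The part of these shifts in the members' values was not tested.

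All 8 members were detected on all 3 arrays of substate 1, and none of them on all 3 arrays of substate 2. This was so for 39 of the 2549 human miRNAs (1.53%). Of the 2549, 1920 were never detected on any array and could not meet this condition. In substate 2, 7 members were detected in experiment 1, 6 in experiment 2 and 0 in experiment 3. In bulk preparations such as these, fewer exosomes that carry a miRNA and fewer copies per exosome cannot be told apart. Signals below are total signals, the background-subtracted intensity that Feature Extraction sums over the probes of a miRNA, and levels are compared between arrays only, never between miRNAs.

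The miR-17-like members gave the following signals. The total signal of miR-519d-3p, which carries the miR-17 seed, was 6.22, 4.24 and 2.71 intensity units in experiments 1, 2 and 3 of substate 1, and 1.17, 1.18 and undetected in substate 2. For miR-520g-3p it was 8.32, 5.78 and 4.11 in substate 1, and 2.83, 2.86 and undetected in substate 2. For miR-520h it was 9.53, 7.33 and 5.08 in substate 1, and 2.39, 3.72 and undetected in substate 2. In each of these 3 miRNAs every array of substate 1 was above the array of substate 2 from the same experiment, and experiment 3 of substate 2 was the array without detection.

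Of the miR-302-like members, miR-520c-3p, with the miR-302 seed, had total signals of 10.2, 7.46 and 6.05 units in substate 1, and of 3.63, 4.06 and undetected in substate 2. Those of miR-519c-3p were 4.57, 3.41 and 1.89 in substate 1, and 1.03, 1.49 and undetected in substate 2. The remaining members were close to the limit of detection. For miR-520b, with the seed of miR-520c-3p, the signals were 3.13, 1.05 and 1.16 in substate 1, and 0.997, 0.935 and undetected in substate 2. The member with a seed of its own, miR-520f-3p, had 2.96, 1.64 and 1.67 in substate 1, and was detected in experiment 1 alone in substate 2, with 1.02. No array of substate 2 detected miR-519b-3p, which had 3.07, 1.20 and 1.19 in substate 1. Against the higher of each substate 2 array's lowest detected signal and the miRNA's own probe signal, its ratio of substate 1 to substate 2 was 1.30. With its own limit of 3 errors also counted the ratio was 0.945, so that no fold is given for miR-519b-3p.

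To compare the substates, the array's own 99th percentile served as the divisor of every total signal (475.6 and 268.7 units in experiment 1, 355 and 281.8 in experiment 2, 179.9 and 125 in experiment 3, for substates 1 and 2). The scaled signals were raised to a common floor of 0.431% of that percentile and taken to log2. This floor is set by the array whose dimmest detected miRNA was brightest on that scale. Values at the floor have no order, and the size of a difference against them depends on the floor and on the probes counted. All differences are substate 2 minus substate 1. On this scale the 3 miR-17-like members had differences of −1.62 ± 0.17 (miR-519d-3p), −1.27 ± 0.98 (miR-520g-3p) and −1.51 ± 1.07 (miR-520h; mean ± SD, n = 3 experiments). The miR-302-like members had −1.39 ± 1.36 (miR-520c-3p), −1.10 ± 0.22 (miR-519c-3p), −0.58 ± 0.51 (miR-520f-3p) and −0.40 ± 0.34 (miR-520b), and for miR-519b-3p, undetected throughout substate 2, no value is given. In substate 2, miR-520b, miR-520f-3p and miR-519b-3p were at the floor on all 3 arrays and miR-519c-3p and miR-519d-3p on 2. On the remaining array miR-519d-3p was 0.02 above it, so that its small SD is set by the floor. In experiment 2, miR-520b and miR-519b-3p were at the floor in both substates. At least 2-fold lower in substate 2 were 5 of the 8 members, beside 22 of the 474 miRNAs detected on at least 3 arrays (4.64%). Without experiment 3 the count was 2 of the 8, beside 17 of the 474 (3.59%). Under the 15 alternatives it lay between 0 (normexp, and the labelled amount before a floor of 1, each beside 0.211% of the 474) and 8 (the deposited values, beside 15.2%). The members' mean differences were at or below 0 under each other scaling and summary tried, except where division by the labelled amount was followed by a floor of 1, which held all 8 members at the floor and gave each 0.56, the median of all tested miRNAs there. The large SDs of miR-520c-3p, miR-520g-3p and miR-520h came from experiment 3, where the differences were −2.97, −2.41 and −2.71 against a signal at the floor, while those in experiments 1 and 2 lay between −1.17 and −0.54.

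The probes behind these totals were then examined. The 8 members have 17 probes and 160 spots on each array, with 3 probes for miR-520h and 2 for each of the others, and no spot was saturated. Feature Extraction counts a probe in the total signal only where its signal exceeds 3 times its error. Recomputed by this rule, all 15294 totals (2549 miRNAs on 6 arrays) were equal to the deposited ones within a relative tolerance of 0.001, with undetected miRNAs written as 0.1. Of the 17 probes, 16 passed in substate 1 and 11 in substate 2 in experiment 1, 14 and 10 passed for experiment 2, and 13 and 0 for experiment 3. The number of passing member probes was thus lower in substate 2 in every experiment, and a total signal there could hold fewer probes of the same miRNA. The same count over all probes of the array is not given here, so that this fall is not set against the array as a whole.

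**Figure D1:**
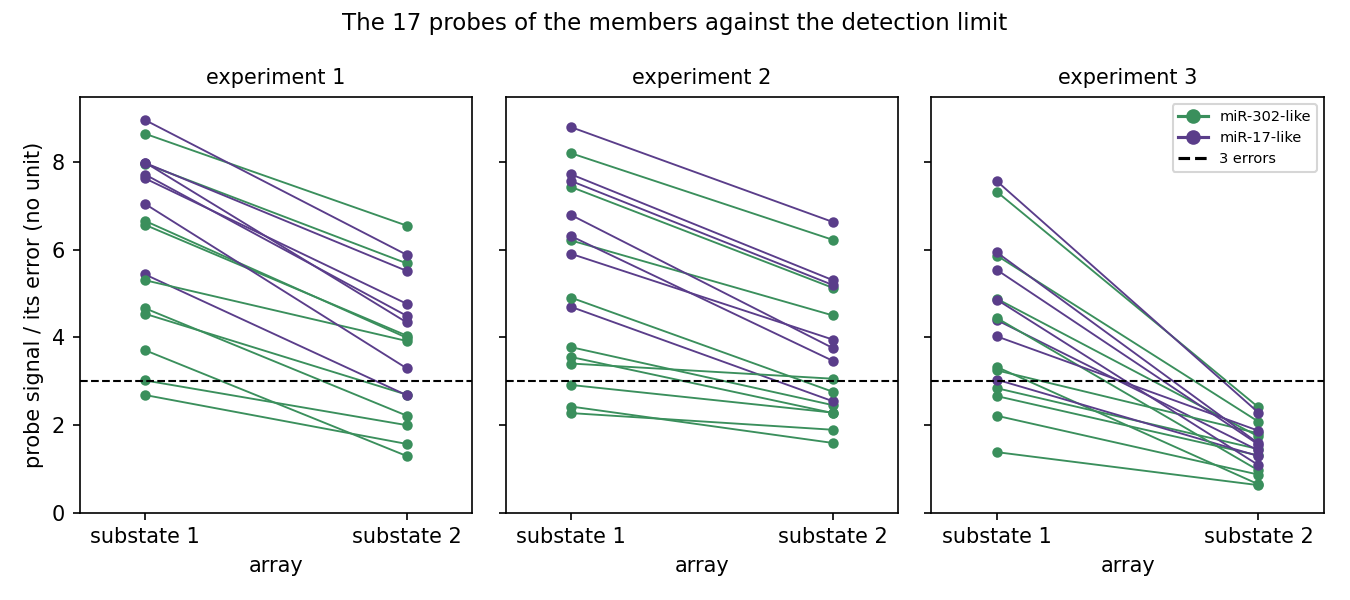
Signal over error (vertical axis, no unit) of each of the 17 member probes on the arrays of substate 1 and substate 2, by experiment, with a line joining the values of a probe. The dashed line marks 3 errors, the limit for counting in the total signal, which 0 of the 17 probes passed in experiment 3 of substate 2.

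Spot by spot the same direction was found. Of the 160 member spots, 119 were well above background in substate 1 and 59 in substate 2 in experiment 1, 94 and 51 in experiment 2, and 69 and 0 in experiment 3. Over all human miRNA spots the shares were 16.9% and 14.8% in experiment 1, 12.6% and 12.8% for experiment 2 and 9.07% and 8.39% for experiment 3. Spots of the 1920 miRNAs never detected are part of these shares, and the members were chosen with their differences known. The fall in the members' spots is therefore not measured against the array as a whole. All 17 member probes had a signal above 0 on every array. In experiment 3 of substate 2 the median member probe had 0.386 intensity units and 1.45 times its error, where the median probe of the 1920 miRNAs never detected had −0.0603 units. Absence from that array was not shown, since the signals were under the limit of detection.

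The same probes were not always counted in both substates. Of the 24 pairs of arrays (8 members in 3 experiments), 8 had the same probes counted in both substates and 16 had fewer in substate 2. All 8 pairs of experiment 3, where no member was detected in substate 2, were among the 16. The same count over all tested miRNAs is not given here. For miR-519d-3p, 2 probes were counted in substate 1 and 1 in substate 2 in experiments 1 and 2. Its difference of −1.58 in experiment 1 became −0.95 when both probes were summed on both arrays, and −1.47 in experiment 2 became −0.79. For miR-519c-3p the corresponding values were −1.16 and −0.62 for experiment 1 and −0.86 and −0.32 for experiment 2. Part of the total-signal difference of these 2 members in experiments 1 and 2 was therefore a change in which probes were counted.

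**Figure D2:**
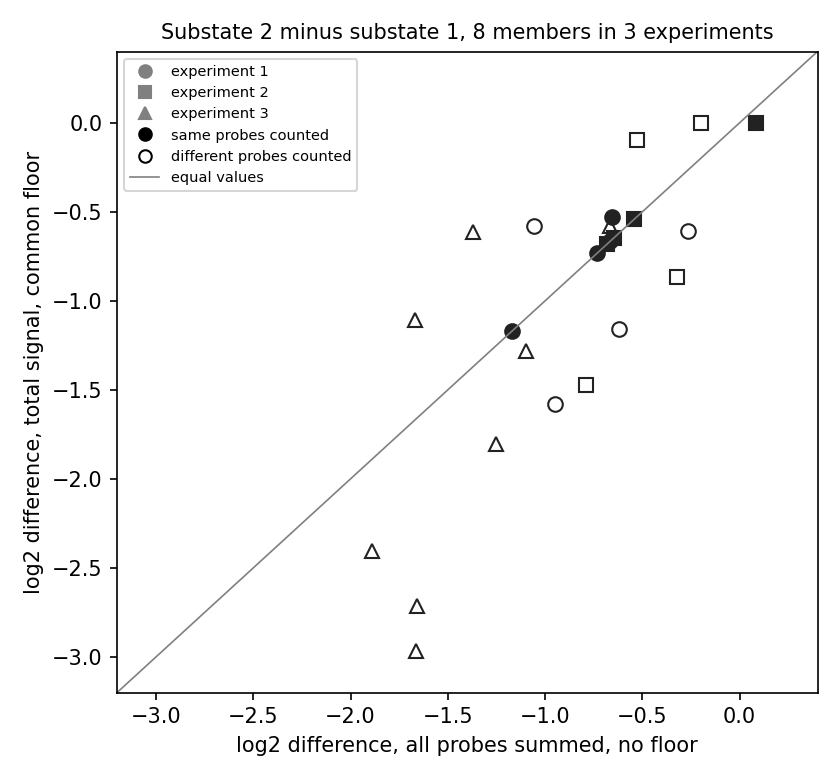
Log2 difference (substate 2 minus substate 1) of the 8 members in each experiment from total signals with the common floor (vertical axis) and from all probes summed without a floor (horizontal axis). Filled points, 8 of 24, had the same probes counted in both substates and lie on or near the line of equal values, while open points lie on both sides of it.

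All probes of a miRNA were therefore summed on every array, without a floor and on the same percentile scale. This step was added once the first values were known. The sums of miR-520h and miR-520g-3p gave differences of −1.16 ± 0.51 and −1.10 ± 0.68, and that of miR-519d-3p gave −0.998 ± 0.24 (mean ± SD, n = 3 experiments). Among the miR-302-like members the differences were −0.96 ± 0.61 for miR-520c-3p, −0.95 ± 0.63 for miR-520f-3p, −0.68 ± 0.39 for miR-519c-3p and −0.28 ± 0.38 for miR-520b. At least 2-fold lower were 2 of the 8 members (miR-520g-3p and miR-520h), beside 22 of 465 miRNAs whose sums were above 0 on all arrays (4.73%). This count rests on experiment 3, where no member probe passed 3 errors in substate 2: over experiments 1 and 2 alone their means were −0.71 and −0.91, and 0 of the 8 members were 2-fold lower, beside 15 of the 465 (3.23%). Lower in all 3 experiments were 7 of the 8, with miR-519b-3p among them by sums under its limit of detection, beside 130 of the 465 (28%). The exception was miR-520b, with −0.26, 0.08 and −0.67 in experiments 1, 2 and 3. In the same 7, again with miR-519b-3p by sums under its limit of detection in substate 2, the substates did not overlap, as in 74 of the 465 (15.9%). Apart from miR-520b and miR-519c-3p, and with miR-519b-3p left out as undetected in substate 2, neighbouring members in this order differed by less than the SD of either.

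**Figure D3:**
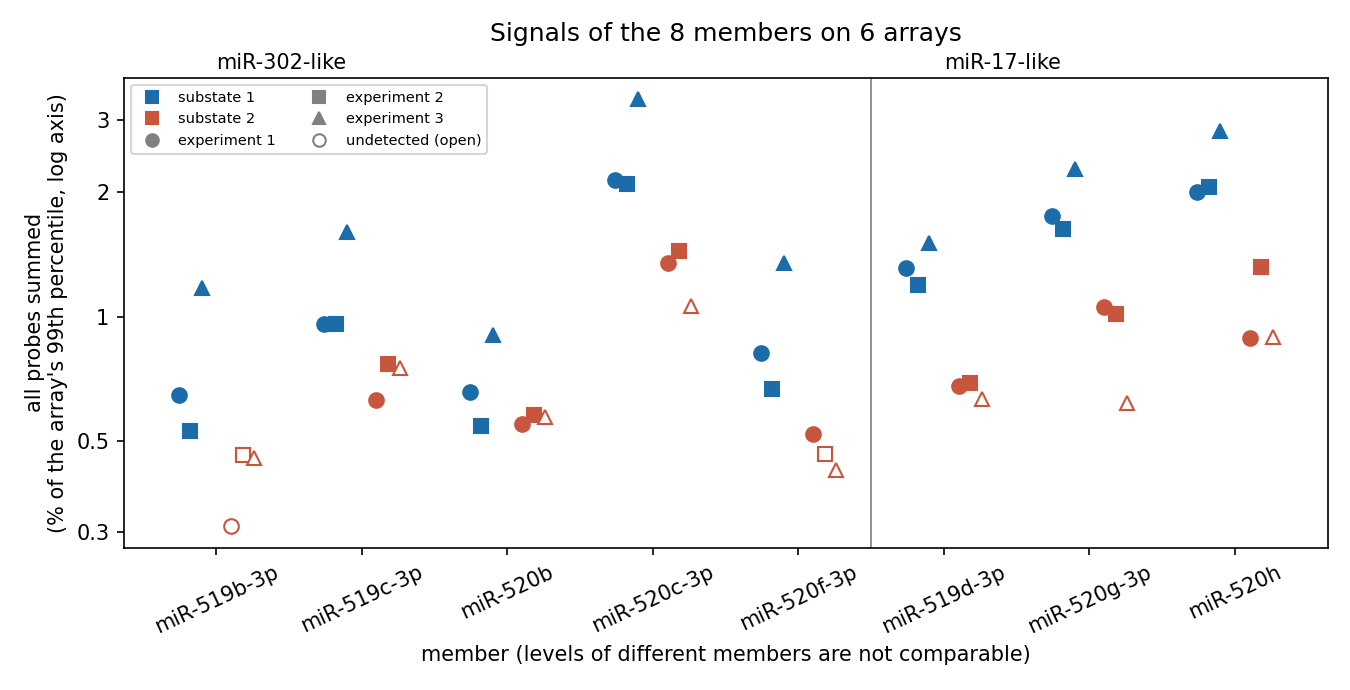
All probes of each member summed, as a percentage of the array's 99th percentile (vertical axis, logarithmic), for substate 1 and substate 2 in the 3 experiments, with open symbols where Feature Extraction marked the member as undetected. The substates overlap for miR-520b and are apart for the other 7 members, for miR-519b-3p by sums under its limit of detection throughout substate 2.

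Single probes gave a similar picture. All 17 were lower in substate 2 in experiments 1 and 3, and 15 of the 17 in experiment 2, beside 52.4%, 43.3% and 47.3% of the 933 probes of tested miRNAs with signals above 0 on all arrays for experiments 1, 3 and 2. Lower in all 3 experiments were 15 of the 17 member probes, beside 250 of the 933 (26.8%). The others were 1 probe of miR-520b (0.17 in experiment 2) and 1 of miR-519b-3p (0.06 in experiment 2). In experiment 2 this miR-520b probe had 3.40 and 3.06 times its error in substates 1 and 2. The miR-519b-3p probe had 2.27 and 1.89 times its error there. In experiment 3 of substate 2, 0 of the 17 probes passed 3 errors. The median difference over the 17 probes was −0.71, −0.52 and −1.46 in experiments 1, 2 and 3, where that over the 933 was −0.06, 0.04 and 0.13. Experiment 3, with the smallest labelled amount, had the members' lowest median while the median of all probes there was above 0.

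Compared by seed, the miR-17-like members had the lower median. With total signals the medians in experiments 1, 2 and 3 were −1.17, −0.68 and −2.41 for the 3 miR-17-like members, and −0.61, −0.10 and −1.11 for the 5 miR-302-like members. The median of the members' mean differences was −1.51 and −0.58, where that of all 474 miRNAs was −0.01. Left without miR-519b-3p, the miR-302-like median was −0.84. The gap between the classes, miR-17-like minus miR-302-like, was −0.56, −0.58 and −1.30 (mean −0.82, SD 0.42), and without miR-519b-3p it was −0.54, −0.36 and −1.21 (mean −0.70, SD 0.45). With all 8 members and all probes summed the gap was nearer to 0 by mean, at −0.30, −0.36 and −0.29 (mean −0.32, SD 0.04). A gap of this size is within the range of single members of a class, and the members of a class share sequence, so that no difference between the seeds is drawn from it.

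Members with nearly the same sequence gave a measure of that range. With all probes summed, miR-520c-3p minus miR-520f-3p came to −0.01, −0.02 and 0.01 in experiments 1, 2 and 3, although their seeds differ. The nested pair with the miR-302 seed was further apart, as miR-520c-3p minus miR-520b was −0.40, −0.63 and −0.996. In the nested miR-17-like pair, miR-520h minus miR-520g-3p was −0.44, 0.04 and 0.23, and thus without a fixed direction. With total signals miR-520c-3p minus miR-520f-3p was −0.13, −0.44 and −1.86, so that the closeness of this pair holds for the all-probe sums only.

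The members were next set beside miRNAs from other genomic clusters with the miR-302a or miR-17 seed. Of the members, only miR-520b and miR-520c-3p have the miR-302a seed itself, and only miR-519d-3p the miR-17 seed. With all probes summed, miR-520b had −0.26, 0.08 and −0.67 in experiments 1, 2 and 3. For miR-520c-3p the values were −0.67, −0.54 and −1.66, and for miR-519d-3p −0.95, −0.79 and −1.25. The medians below are over each whole class. Of the 6 miR-302 seed relatives listed, miR-302a-3p, miR-302b-3p, miR-302c-3p and miR-302d-3p could be tested. Their median difference was −0.57, 0.26 and −0.72 in experiments 1, 2 and 3, whereas the miR-302-like members, with all probes summed, had −0.66, −0.32 and −1.37. The members' medians include miR-519b-3p by sums under its limit of detection in substate 2, and without it they were −0.64, −0.42 and −1.38. On this scale, and with miR-519b-3p included, the members' median minus that of the relatives was −0.08, −0.58 and −0.65 (mean −0.44, SD 0.31). The order turned with quantile normalisation (−0.10 for the members and −0.31 for the relatives), with normexp (−0.12 and −0.26) and with the labelled amount before a floor of 1 (0.56 and −0.34), and is therefore not drawn on. The 5 miR-17 seed relatives analysed (miR-17-5p, miR-20a-5p, miR-20b-5p, miR-93-5p and miR-106b-5p; miR-106a-5p was not analysed here) were higher in substate 2 in all 3 experiments, with medians of 0.38, 1.29 and 0.35. Without percentile scaling their median of mean differences was 0.07, with miR-93-5p at −0.08, where all tested miRNAs had a median of −0.57. The miR-17-like members were on the other side of 0, with −0.95, −0.68 and −1.66, and their median minus that of the relatives was −1.33, −1.97 and −2.01 (mean −1.77, SD 0.38). The medians of the miR-17-like members and their relatives were −0.19 and 0.58 with normexp, −2.43 and 0.53 with the deposited values, and 0.56 and 0.60 where the labelled amount came before a floor of 1. In that last setting the gap was 0.45, −0.84 and 0.01 in experiments 1, 2 and 3, and thus turned in experiments 1 and 3. The size of the gap, and in that setting its direction, therefore depend on how the arrays were processed. The 5 relatives were detected on all 6 arrays and none of the members was, and the part of signal level in the gap was not tested.

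**Figure D4:**
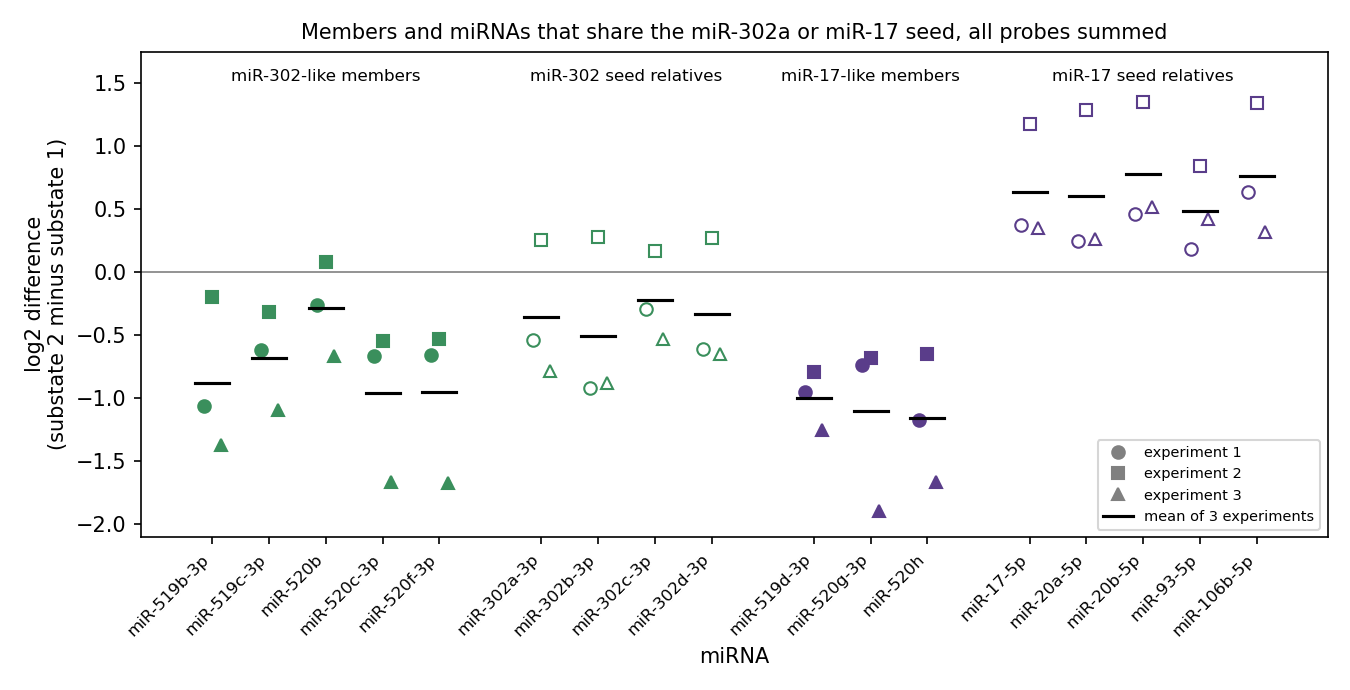
Log2 difference (substate 2 minus substate 1, all probes summed) of the 8 members (filled) and of miRNAs from other clusters that share the miR-302a or miR-17 seed (open), with 1 point per experiment and a bar at the mean. The 5 miR-17 seed relatives are above 0 in all 3 experiments and the 3 miR-17-like members below 0 in all 3.

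The other 9 miR-519 and miR-520 entries of the array were mostly without signal. Detection was found for 2 of them, miR-520a-5p and miR-520d-3p, each in experiments 1 and 2 of substate 1 and nowhere else. Undetected on all 6 arrays were miR-519d-5p, miR-519e-3p, miR-519e-5p, miR-520a-3p, miR-520e, miR-520f-5p and miR-520g-5p. The opposite arms of miR-519d-3p, miR-520f-3p and miR-520g-3p were thus not detected where the members were. None of the 9 was detected in substate 2, and no differences are given for those undetected on all 6 arrays. With all probes summed, miR-520d-3p had differences of −0.91, −0.99 and −1.20 in experiments 1, 2 and 3. Those of miR-520a-5p were −0.45, −0.38 and −1.69. As for miR-519b-3p, these rest on sums under the limit of detection in substate 2.

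Elsewhere in C19MC, 29 entries of the miR-512, miR-515 to miR-518, miR-521 to miR-527, miR-498 and miR-1323 names were on the array. Of these, 18 were detected at least once and 12 could be tested. Their median difference in total signal was −0.76, −0.67 and −1.42 in experiments 1, 2 and 3. This was close to −0.70, −0.59 and −1.54 for the 8 members. At least 2-fold lower were 6 of the 12, beside 22 of the 474 tested miRNAs (4.64%). With all probes summed the medians were −0.91, −0.86 and −1.45, against −0.70, −0.53 and −1.52 for the members. On that scale 7 of the 12 were at least 2-fold lower, beside 2 of the 8 members and 22 of 465 miRNAs (4.73%). The 5 tested miRNAs whose log2 profile over the 6 arrays, centred on its mean, lay nearest to the mean profile of the 8 members were miR-512-3p, miR-517a-3p, miR-516b-5p, miR-671-5p and miR-515-3p. Their root mean square distances were 0.13, 0.17, 0.21, 0.25 and 0.28 on the log2 scale, against a median of 0.70 over 466 miRNAs. All but miR-671-5p are C19MC miRNAs. None of the 8 members was above the floor on all 6 arrays, and all 8 were at the floor in experiment 3 of substate 2, so that their mean profile on that array is set by the floor. The nearest, miR-512-3p, was detected on all 6 arrays and had differences of −0.93, −0.67 and −1.65.

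Over the whole array, limma was fitted to the 474 miRNAs detected on at least 3 arrays, with a block for experiment and p-values adjusted by Benjamini-Hochberg. Calls were made at an adjusted p under 0.05 where the substates were also 2-fold or more apart. limma called 0 of the 474 lower (0%) and 0 higher in substate 2, and therefore 0 of the 8 members, with a smallest adjusted p of 0.139 over all miRNAs. At an unadjusted p under 0.05 there were 63 lower and 46 higher. The methods' t-test, with the same adjustment, also called 0. It was run here over the 474 miRNAs on the scale with the common floor, not on the deposited values. At an unadjusted p under 0.05 it had 7 lower and 7 higher among miRNAs at least 2-fold apart. In the paper only miRNAs already 2-fold apart were tested and corrected, so that its calls are not directly comparable with this count. Without the block for experiment limma called 1 miRNA, miR-519d-3p, as lower, which as a member chosen on these arrays adds no independent evidence. When only the 289 miRNAs detected on all 6 arrays were tested, limma called 5 higher and 2 lower, and that filter leaves out all 8 members.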

How the data were processed

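Exosome-derived miRNAs of substates 1 and 2 were measured in 3 experiments at different passages of 1 cell line. The deposited scanner values are intensity per spot, probe and miRNA on Agilent SurePrint G3 arrays (1 colour), which the authors obtained with Feature Extraction 12.0.3.2 for experiment 1 and 11.5.1.1 for experiments 2 and 3, with background subtracted and no normalisation between arrays. The authors also deposited log2 values, for which the methods name GeneSpring GX, a floor of 1 and the 99th percentile per array, without a baseline transformation. Set against the scanner values, they were log2 total signals minus 1 constant per array. The 160 detected signals under 1 were held at 1 and undetected miRNAs stayed at 0.1, without the floor. The array medians, which are those of undetected miRNAs, were −12.73 and −11.77 in experiment 1, −12.06 and −12.14 for experiment 2 and −11.37 and −10.88 for experiment 3 (substates 1 and 2). Direction and centring are thus known, the origin of the constants is not, and the values were used as an alternative only. A correction to 1 ng is also named in the methods.

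From total signals of human miRNAs, log2 values relative to the 99th percentile of each array, with the common floor, were computed in Python 3.11.15. The fit was made with limma 3.58.1 in R 4.3.3. p-values measure only the spread between these samples. Arrays were paired by the experiment number in the labels, which goes with a shared labelled amount, and because the study used a paired test. Deviations from the substate means correlated by 0.674, 0.0307 and 0.517 between the arrays of experiments 1, 2 and 3. The members and lists were chosen with earlier results of these data known. Named miRNAs are the members, all other miR-519 and miR-520 entries, listed seed relatives, markers of 5 cell types and the 5 nearest profiles. The 8 members were described without a test. Alternatives covered the floor, the scaling, the signal summary, background correction, filters, the block, the test and each experiment left out. Summing all probes and taking the brightest probe were added after the values were seen. Normexp used the median spot intensity.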

Additional observations from a re-analysis of the deposited data

How the results depend on the processing

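Of 120 differences of single members under 15 alternatives, 77 moved by less than 1 SD between experiments, and 8 turned positive. All 8 arose when division by the labelled amount came before raising signals to 1, which put 86.4% of tested values at that floor. The medians of the members, the miR-302-like and the miR-17-like members were then 0.56 each, equal to that of all tested miRNAs (0.56), with a gap between the classes of 0, and limma made 1 call (miR-7107-5p, lower). limma made 7 calls among miRNAs detected on all 6 arrays and, with the main settings, 1 with no replicate block. The other settings were not fitted without the block. Without percentile scaling, as with the 75th percentile over all human miRNAs, the medians were −1.75 (all members), −1.54 (miR-302-like) and −1.44 (17 probes), where all tested miRNAs had −0.57. With the labelled amount in its place they were −1.75, −1.22 and −1.44, where all tested miRNAs had −0.51. Relative to these shifts the members' medians were −1.18 and −1.24. Quantile normalisation gave −0.28 for all members. Normexp, whose offset draws dim signals together, gave −0.13, −0.19 for the miR-17-like members and −0.0816 for the gap. The deposited log2 values, in which undetected miRNAs are far below the dimmest detected one, gave −2.37 (all), −2.31 (miR-302-like) and −2.43 (miR-17-like), where all tested miRNAs had −0.12. The gap was −0.31 with processed signals per spot, and −0.32 with all probes summed, with or without a floor. The cause of the other shifts was not tested. Leaving out single experiments, the median of all members lay between −1.39 and −0.66, that of the miR-302-like members between −0.82 and −0.32, that of the miR-17-like members between −1.69 and −0.91, the gap between −0.94 and −0.57 and the probe median between −1.05 and −0.63. The values nearest to 0 came without experiment 3, where signal over background was too low in substate 2 to detect any member, and then 2 members in place of 5 were at least 2-fold lower, beside 17 of the 474 miRNAs (3.59%).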
